A study of Homo sapiens with 2 samples.

Results

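Intermediate filament and lamin genes were examined in ribosome profiling libraries of HEK293T cells, an established line of human embryonic kidney origin. The members were the protein-coding rows of the count table named VIM, NEFL, NEFM, INA, KRT8, KRT18, KRT10, LMNA, LMNB1 and LMNB2. All 10 were found among 19994 coding rows. Ribosome profiling sequences the mRNA fragments that ribosomes shield from nuclease, so a gene's count follows the ribosomes found on its mRNA.

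The study had 2 libraries, 1 per group, and each came from a culture of wild-type HEK293T cells in a 15 cm dish. Both cultures received the plasmid for TetRS, named chPylRSIPYE in the labels, which carries 12 cassettes written U6-CM15CGA, and both were given TetBu. The culture with the reporter also received pEGFP-mCherry-T2A-EGFP-151TCG, and the culture without it did not. Expression lasted 30 h, and cells then had 1 min in medium with 0.1 mg/mL cycloheximide, which stalls cytosolic ribosomes. As both cultures held TetRS and its tRNA, the groups differ by design in the reporter plasmid, and transfected cells were not separated from untransfected ones.

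The libraries held 2519301 counts with the reporter against 3151403 without, of which 346240 and 307768 lay in coding genes. The reporter sequence had 271843 counts with its plasmid and 399 without it, in the direction of the titles, while TetRS had 30286 and 59723. With 1 library per group there is no replicate spread and no p-value. Each interval below is exact at 95% and covers counting error only, under the assumption that every read is an independent molecule. No matched RNA library was used here, so the amount of an mRNA and its translation cannot be told apart, nor can fewer expressing cells and less RNA per cell.

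Intermediate filaments are rope-like polymers of coiled-coil proteins that give cells mechanical strength. Vimentin is the filament protein of mesenchymal and many cultured cells. Keratins pair as an acidic type I with a basic type II partner, and KRT18 and KRT8 are the pair of simple epithelia, whereas KRT10 is known from the upper layers of the epidermis. NEFL, NEFM and INA encode the light and medium neurofilament chains and alpha-internexin of neurons. Lamins form the mesh under the inner nuclear membrane, with lamins A and C from LMNA and the permanently farnesylated B-type lamins from LMNB1 and LMNB2. HEK293 cells are known to carry filament proteins of several of these lineages at once.

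The windows before the members' start sites hold different motifs, and those of VIM and KRT10 are printed because they stand for the most counted member and for the one whose window holds a TATA box. RefSeq windows on GRCh38.p14 were matched for 7 of the 10 genes, with 10 windows in all; KRT18, NEFL and NEFM were not matched. The 60 bases before the start site are written 5′ to 3′, with TATAAA or GGGCGG on either strand in capitals. VIM lies at chr10:17228181-17228240 on the plus strand and KRT10 at chr17:40822615-40822674 on the minus strand.
VIM: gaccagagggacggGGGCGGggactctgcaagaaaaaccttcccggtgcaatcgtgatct
KRT10: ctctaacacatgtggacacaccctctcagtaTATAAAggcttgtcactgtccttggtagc
In the 250 bases before the start, TATAAA was present for KRT10 alone among the matched members, against 10.7% of all 35116 windows. GGGCGG was present in 7 of the members' 10 windows, those of VIM, INA, LMNA, LMNB1 and LMNB2, against 42.6% of all windows. These matches describe the letters and were not set against the footprint values.

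The members together took 496 of the coding counts with the reporter against 380 without. That is 0.143% (0.131 to 0.156%) and 0.123% (0.111 to 0.137%) of coding counts, a log2 ratio of 0.21 (0.02 to 0.41). The interval reached below 0.07, the median under coding totals of coding genes with 100 or more summed counts. NEFL made 106 and 49 of the family's counts, and the family value without NEFL was not computed. Vimentin, the neurofilament class and the lamins each held a similar part of the family's counts, and the keratins far less. With the reporter, these were 29.8% (25.8 to 34.1%) for VIM, 33.3% (29.1 to 37.6%) for the neurofilament class, 30.8% (26.8 to 35.1%) for the lamins and 6.05% (4.12 to 8.52%) for the keratins. Without it, they were 34.5% (29.7 to 39.5%), 27.9% (23.4 to 32.7%), 33.2% (28.4 to 38.1%) and 4.47% (2.63 to 7.07%).

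Levels of different genes were compared per length, as the RPKM deposited by the authors, which divides by a gene length listed in the file. VIM was the highest member in both libraries, at 9.95 RPKM (8.41 to 11.7) with the reporter and 9.16 (7.66 to 10.9) without it, and ranked 388 and 341 among the 19994 coding genes. KRT8 was the lowest in both, at 0.152 (0.0313 to 0.443) and 0.210 (0.0573 to 0.539), and VIM was at 65.6 and 43.5 times its level. With the reporter the order was VIM, NEFL, NEFM, LMNB1, LMNB2, KRT18, LMNA, KRT10, INA and KRT8. Without it the order was VIM, NEFM, NEFL, LMNB2, LMNB1, LMNA, KRT18, INA, KRT10 and KRT8. Both orders and the ranks rest on the listed lengths, which ran from 2163 bases for KRT10 to 8141 for LMNA. Coding lengths were not used, so places in the order could differ per coding length. Of the 9 pairs of neighbours in each order, only 1 had intervals that did not overlap. These were NEFL above NEFM with the reporter and VIM above NEFM without it. Most of the order within a library was thus not resolved at this depth. Per listed length, the lead of VIM, NEFL, NEFM and the B-type lamins over INA, KRT10 and KRT8 was resolved.

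For each gene the counts were scaled by edgeR's TMM factors and expressed as a log2 ratio, with over without the reporter. Of the 10 members, 4 had 100 or more counts over both libraries together, the minimum for a measured gene, and these were VIM, NEFL, NEFM and LMNB2. The rule for a higher or lower gene asked for a ratio of 2-fold or more and an interval that left out 0. None of the 4 measured members met it in either direction. In the background, 2.83% of the 1060 measured coding genes were counted as higher and 0.566% as lower. The median log2 ratio was 0.04 over the 4 members and 0.11 over the 1060 genes.

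Vimentin had nearly the same number of footprints in both libraries. VIM (chromosome 10, 17228241 to 17237593) had 148 counts with the reporter against 131 without, a log2 ratio of 0.04 (-0.31 to 0.39). In fold terms the interval ran from 0.809 to 1.31, and 43.5% of the measured coding genes had a lower ratio. As a share of coding counts its log2 ratio was 0.01 (-0.34 to 0.36). Markers of mesenchyme other than VIM had a count for 6 of 6 genes with the reporter and 5 of 6 without it. They summed to 19 and 56 counts, a log2 ratio against all coding counts of -1.73 (-2.56 to -0.96). The pooled value rested on collagen genes, with COL1A2 at 4 and 21 counts, COL3A1 at 4 and 19 and COL1A1 at 6 and 13. The markers that are not collagens did not share that direction as a set. PDGFRB had 2 and 1 counts, DCN 1 and 2 and LUM 2 and 0. The part of these markers in the VIM value was not tested. The antisense row VIM-AS1, which shares 1778 bases with the locus, had 2 counts and 0.

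The neurofilament light chain gene had the largest log2 ratio of the 4 measured members. NEFL (chromosome 8, 24950955 to 24956721) had 106 counts with the reporter against 49 without. This gave a log2 ratio of 0.98 (0.48 to 1.5), or 1.97-fold (1.39 to 2.83), just under the 2-fold threshold. Its RPKM was 9.36 (7.67 to 11.3) and 4.50 (3.33 to 5.95), and it ranked 411 and 852 among coding genes. Of the 1060 measured coding genes, 35, or 3.30%, had a ratio at least as high as NEFL, counting NEFL itself. Among the 672 with 100 to 200 summed counts, 27 did, or 4.02%. The ratios of those 672 genes had an SD of 0.48, where counting error alone would give 0.26, so genes of this depth spread more widely than the interval of NEFL shows. With DESeq2 size factors or total counts as the scaling, NEFL passed the 2-fold rule at 1.06 and 1.44. The miRNA gene MIR6841 lies inside the locus and had 3 counts and 2.

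The other neuronal filament genes had lower log2 ratios than NEFL, but neither difference held with the error spread over the 10 pairs compared below. NEFL minus NEFM then ran from -0.15 to 2.05, and NEFL minus INA from -0.68 to 6.23. NEFM, the medium chain, lies beside NEFL (chromosome 8, 24913758 to 24919098) and had 56 counts with the reporter against 50 without, a log2 ratio of 0.03 (-0.55 to 0.61). INA, alpha-internexin (chromosome 10, 103277138 to 103290346), had 3 counts and 7, and its log2 ratio of -1.35 (-3.94 to 0.78) was not resolved at this depth. INA shares 468 bases with NT5C2 on the opposite strand, which had 24 and 20 counts, and whether counting used strand is not stated in the sources used here. As a class these 3 genes had 165 counts against 106, and a log2 ratio against all coding counts of 0.47 (0.11 to 0.83). That value rested on NEFL, since without it the class was at -0.12 (-0.67 to 0.43). Markers of neurons outside this family were nearly absent. SYP, TUBB3, MAP2 and RBFOX3 had 11 counts in each library together, STMN2 and SNAP25 were at 0 in both, and MAP2 was at 0 without the reporter.

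Keratins were sparse, and under TMM scaling their differences were within counting error. KRT18 (chromosome 12, 52948871 to 52952906), the acidic chain, had 21 counts with the reporter against 11 without, a log2 ratio of 0.80 (-0.32 to 2.00). Under total counts it was 1.26 (0.14 to 2.46), where the coding median was 0.57. Its partner KRT8 (chromosome 12, 52897187 to 52949954) had 3 and 4 counts, a log2 ratio of -0.55 (-3.32 to 2.02). KRT10 (chromosome 17, 40818117 to 40822614) had 6 and 2 counts, a log2 ratio of 1.45 (-1.03 to 4.79). A 2-fold difference in either direction thus lies inside the intervals of KRT8 and KRT10. The antisense row KRT10-AS1 shares 3509 bases with the KRT10 locus and had 1 and 5 counts, the reverse direction. Whether counting used strand is not stated, so reads of the 2 rows may not be separated. The 3 keratins had 30 counts against 17, and a log2 ratio against all coding counts of 0.65 (-0.26 to 1.60).

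The chains of the KRT8 and KRT18 pair were not counted at like levels per length. KRT18 was at 2.38 RPKM (1.47 to 3.64) and 1.30 (0.648 to 2.32), above the interval of KRT8 in both libraries. The listed length of KRT8 is 6881 bases and that of KRT18 is 3069, which alone lowers KRT8 in RPKM. The raw counts, at 21 against 3 and 11 against 4, ran the same way. The loci share 1084 bases on opposite strands. The table also holds 51 pseudogene rows of KRT8, which summed to 9 counts in each library, more than KRT8 itself, and 67 of KRT18, which summed to 3 and 2. Reads that match a gene and its copies could have been assigned to either or dropped, so the counts of both keratins are uncertain. Markers of simple epithelium other than the members had 22 counts with the reporter, from 4 of 6 genes, and 4 without it, from 2 of 6. That is a log2 ratio against all coding counts of 2.29 (0.73 to 4.29). CDH1 made 11 and 1 of these counts, EPCAM 4 and 0, and KRT19 and CLDN7 were at 0 in both. Their part in the KRT18 value was not tested.

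Lamin genes had 153 counts with the reporter against 126 without, a log2 ratio against all coding counts of 0.11 (-0.24 to 0.46). LMNB2 (chromosome 19, 2427638 to 2456959) had 63 and 58 counts, a log2 ratio of -0.01 (-0.55 to 0.53). LMNB1 (chromosome 5, 126776623 to 126837020) had 53 and 28 counts, a log2 ratio of 0.79 (0.10 to 1.5), and stayed below the count minimum. LMNA (chromosome 1, 156082573 to 156140081) had 37 and 40 counts, a log2 ratio of -0.24 (-0.93 to 0.44). Of the lamins, LMNB1 alone had an interval that excluded 0, but it reached down to 0.10, below the coding median of 0.11. That median covers genes at or above the count minimum. Over coding genes with at least 20 counts the median was 0.06, which lay below the LMNB1 interval. Per length LMNB1 was at 5.08 RPKM (3.80 to 6.64) and 2.79 (1.85 to 4.03), and LMNB2 at 4.06 (3.12 to 5.20) and 3.89 (2.95 to 5.03). LMNA was lower, at 1.58 (1.11 to 2.18) and 1.78 (1.27 to 2.42), with intervals below those of LMNB2 in both libraries. The listed length of LMNA, 8141 bases, is the longest of the family and that of LMNB2 is 5395, which alone lowers LMNA in RPKM. The raw counts, at 37 against 63 and 40 against 58, ran the same way but lay closer together. No pseudogene rows of the 3 lamins were listed.

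Read against the coding median, NEFL, LMNB1, KRT18 and KRT10 lay above it and the other 6 below it. NEFL alone had its whole interval above this median of the measured genes, and no member had it below. Against the median of 0.06 over coding genes with at least 20 counts, the interval of LMNB1 (0.10 to 1.5) also lay wholly above. The share of all coding genes with an interval wholly above either median was not computed. Ratios of the 1060 measured genes had an SD of 0.46, where counting error alone would give 0.23. An interval above the median thus does not set a gene apart from the spread of other genes. A change of scaling adds 1 constant to every log2 ratio and to the median alike, so positions relative to the median do not depend on it. Scaling by total counts adds 0.46.

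Differences between members need no scaling, because both genes of a pair share the libraries. Of 10 pairs compared, 4 had an interval that excluded 0 at 95%. NEFL exceeded NEFM by a log2 difference of 0.95 (0.17 to 1.73), and INA by 2.34 (0.12 to 4.96). VIM minus NEFL was -0.94 (-1.57 to -0.32), and LMNA minus LMNB1 was -1.03 (-2.03 to -0.04). With each interval widened so that its error is spread over the 10 pairs, only VIM and NEFL differed beyond counting error (-1.83 to -0.06). This setting was chosen after the data were seen. It covers the 10 pairs alone and not the choice of pairs. VIM was paired with NEFL, KRT18 and LMNB1 and with no other member. Of these, NEFL and LMNB1 had the highest log2 ratios of their classes. LMNB1 minus LMNB2 was 0.80 (-0.09 to 1.70) and LMNA minus LMNB2 was -0.23 (-1.11 to 0.65), so the lamins were not separated by class. The interval of KRT8 minus KRT18 ran from -4.33 to 1.51 and shows no more than that the pair cannot be compared at this depth.

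Other genes of the filament family had few counts. Of 60 coding rows, 47 had no count in either library, and the rest summed to 21 counts with the reporter against 15 without. The most counted was BFSP1, a lens filament gene, with 5 and 3. PRPH, the peripherin of peripheral neurons, had 0 and 3, NES, the nestin of neural progenitors, had 3 and 0, and NEFH, the heavy neurofilament chain, had 1 and 0. The exact intervals of these ratios all included 0, so no difference was detectable at this depth. The epidermal keratins KRT14 and KRT1 and the glial filament gene GFAP were at 0 in both libraries, as were the muscle genes MYOD1, MYOG and ACTC1. DES had 1 count in each. Keratinocyte markers summed to 5 and 6 counts, muscle markers to 7 and 8, and astrocyte markers to 31 and 15, of which SLC1A3 made 29 and 13. Markers of embryonic kidney, the tissue of the line, had 43 and 54 counts from 6 and 7 of 7 genes, with SALL1 at 20 and 27.

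Genes that act with the lamina held about as many footprints in both libraries. The 20 lamina partners had 877 counts with the reporter against 821 without, a log2 ratio against all coding counts of -0.07 (-0.21 to 0.06). None of the 5 measured ones was counted as higher or lower, where 2.83% and 0.566% of the 1060 measured coding genes were. Their median was 0.08 against 0.11 for those 1060 genes. Single partners with fewer counts varied. The interval lay below 0 for NUP153 (30 and 45 counts) and SYNE3 (0 and 7) and above 0 for TOR1AIP1 (49 and 19). TPR, a nuclear pore basket protein, was most counted and lowest, with 157 and 162 counts and a log2 ratio of -0.18 (-0.50 to 0.15). ANKLE2, a LEM-domain protein, was highest, with 71 and 48 counts (0.43, -0.12 to 0.99). EMD, which encodes emerin, had 149 and 134 counts and a log2 ratio of 0.02 (-0.33 to 0.37).

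Lowering the minimum to 20 counts brought in 6296 coding genes, of which 6.69% were counted as higher and 6.54% as lower. The members numbered 7 at this minimum, and none was counted. Among 17 lamina partners only TOR1AIP1, a lamin-binding inner membrane protein, was counted, with 49 and 19 counts (1.23, 0.44 to 2.08). Of 4 genes of lamin maturation only ZMPSTE24, the protease that trims prelamin A, was counted, with 43 and 13 counts (1.59, 0.67 to 2.61). Its substrate gene LMNA had 37 and 40. ICMT, which methylates the farnesylated end, had 28 and 26 counts (-0.03, -0.85 to 0.80), and the list as a whole had 106 and 74, a log2 ratio against all coding counts of 0.35 (-0.09 to 0.80). ZMPSTE24 was also the most counted gene of its list.

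Linkers and modifiers of filaments gave a mixed picture. The 14 plakin and desmosome genes had 318 and 239 counts, a log2 ratio against all coding counts of 0.24 (-0.004 to 0.49). MACF1, a plakin that bridges microtubules and actin, was the only one measured, with 80 and 48 counts (0.60, 0.07 to 1.15). At 20 counts, DST, another plakin, was the only one of 8 counted, with 28 and 52 counts (-1.03, -1.74 to -0.34), while the desmoplakin gene DSP had 64 and 33 (0.82, 0.20 to 1.48) and PLEC, which encodes plectin, had 30 and 25. The 16 genes that bind or modify filaments had 1061 and 883 counts, a log2 ratio against all coding counts of 0.10 (-0.04 to 0.23). None of the 6 measured ones was counted, where 2.83% of the measured coding genes were counted as higher and 0.566% as lower. The highest was the 14-3-3 gene YWHAE, also the most counted, with 488 and 349 (0.35, 0.15 to 0.55). The lowest was the actin crosslinker FLNA with 77 and 83 (-0.24, -0.71 to 0.22). Of 12 at 20 counts, only KLHL24, a ubiquitin ligase adaptor for keratins, was counted, as lower, with 4 and 16 counts (-2.13, -4.17 to -0.50). At this minimum 6.54% of the 6296 coding genes were counted as lower, so 1 such gene in lists of 8 and 12 is near that share. Beyond the naming rule, the list genes EMD, TOR1AIP1, NUP153, SYNE3, ICMT, DST, DSP, PLEC, KLHL24, PRPH, NES and NEFH were chosen after their values were seen. So were the single cell type markers given with counts.

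**Figure D1:**
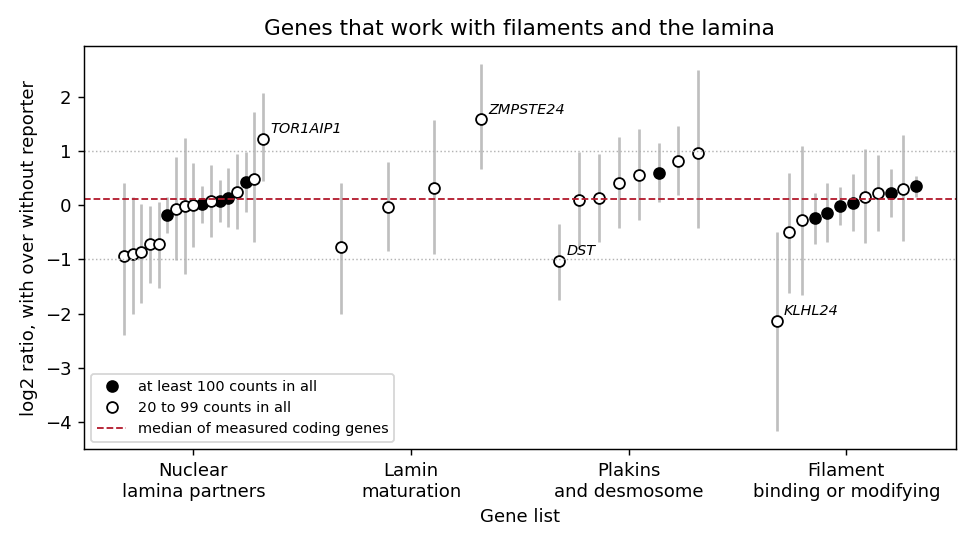
Log2 ratio, with over without the reporter, for genes with at least 20 summed counts in 4 lists, each with its exact 95% counting interval; filled points have at least 100 counts, the dashed line is the coding median and the dotted lines mark 2-fold. The named genes pass 2-fold, and all of these have fewer than 100 counts.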

How the data were processed

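The deposited count table holds whole-number counts per gene for 61554 rows. TopHat2 2.0.12, HTSeq 0.9.1 and the builds GRCh37 and hg19 are listed without roles, per the submitters' processing notes. Coordinates are those of the files. They fit GRCh38, since 19077 of 19080 coding symbols shared with the RefSeq GRCh38.p14 table overlap their locus there. Whether counting used strand, and what was done with multiply matching reads, is not stated in the sources used here. The RPKM values deposited by the authors equalled the count divided by listed gene length and a library size of 2873483 with the reporter and 2762965 without it, to a relative 1e-09. Those sizes are the DESeq2 1.42.0 size factors times the geometric mean of the total counts.

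Counts were scaled by edgeR 4.0.16 (TMM over all rows, R 4.3.3). Log2 ratios have Clopper-Pearson intervals and RPKM values Poisson intervals. Class and pair values are log2 odds ratios with conditional exact intervals, computed in Python 3.11.15 with scipy 1.17.1. Steps were tested on simulated independent Poisson counts, the same assumption that the intervals make. That test cannot show how the intervals do where genes spread more widely than counting error, as they did here. Every member was named, with the highest, lowest and most counted gene of each list of other filament genes or partners, and markers of cell types fall outside that rule. Members and lists were chosen with earlier results of these data known. Alternatives were other scalings, deposited RPKM with 0.1 added, other count minimums and folds, added pseudogene rows and classes without single members. Coding lengths from proteins were not used here.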

Additional observations from a re-analysis of the deposited data

How the results depend on the processing

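Counting error and 1 library per group limit every value. The count of members passing the 2-fold rule as higher, 0 with TMM, was 1 (NEFL) with DESeq2 size factors, with total counts and with a fold threshold of 1.5. It stayed 0 with coding totals, TMM over coding rows, minimums of 20 and 200 and no minimum, and no member passed as lower under any of these. Over all measured coding genes, 30 higher and 6 lower became 46 higher with DESeq2 size factors, 190 higher and 0 lower with total counts, 156 and 66 at 1.5-fold, 421 and 412 at a minimum of 20, 7 and 1 at a minimum of 200, and 697 and 810 with no minimum. VIM went from 0.04 to 0.50 under total counts, outside its TMM interval, and the other members stayed inside theirs. Under total counts the intervals of VIM, NEFL, KRT18 and LMNB1 excluded 0, and that scaling adds the same 0.46 to every gene. The neurofilament class reversed from 0.47 to -0.12 without NEFL, which made 106 of its 165 counts with the reporter and 49 of its 106 without. Of the pairs, 4 excluded 0 at 95%, and 1 with the error spread over the 10 pairs, an alternative chosen after the data were seen. Pseudogene rows had counts for KRT8 and KRT18 alone, and adding them left both pairs that hold these genes within their intervals. The order of levels by coding length was not run. No paired analysis was possible because each group has 1 library.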
